A study of Mus musculus with 12 samples.

Results

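The genes described here are 8 abundant noncoding RNAs of the mouse, namely Rn7s1, Rn7s2, Rn7sk, Rmrp, Rpph1, Malat1, Neat1 and Kcnq1ot1. They were taken by symbol, and all 8 symbols are among the 54582 that both deposited count tables hold. The set was put together because reads of Rn7s1 and Rn7s2 stood almost exclusively in macrophages given apoptotic cells, so the difference between libraries with and without those cells is given for these genes as a description, with no test. Poly(A) RNA of primary mouse bone marrow-derived macrophages was sequenced in 12 libraries, 3 in each of 4 groups. In 2 groups, named KO + AC and WT + AC here, Kif13b-/- and wild-type macrophages had been held for 90 min with apoptotic cells of Jurkat, a human T cell leukaemia line, at 5 apoptotic cells per macrophage. In the other 2 groups, KO and WT, the same genotypes had no apoptotic cells. The labels give the tissue as tibial and an age of 6 to 8 weeks. The genotype is written Kif13b-/- in the protocol and as a knock down among the library labels. KO is used here for either wording. The labels give serum at 12, 13 and 14% for the KO libraries and 10, 10 and 11% for the WT libraries without apoptotic cells, a run that is in doubt and was not used.

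5 of the 8 genes make short RNAs that RNA polymerase III transcribes and that end without a poly(A) tail. 7SL, the product of Rn7s1 and Rn7s2, is the scaffold of the signal recognition particle, which takes ribosomes making secreted proteins to the endoplasmic reticulum. 7SK, the product of Rn7sk, holds the elongation kinase P-TEFb inactive, Rmrp is the RNA of RNase MRP, which cuts ribosomal precursors, and Rpph1 is the RNA of RNase P, which trims the leader of transfer RNAs. The other 3 are long RNAs that stay in the nucleus. Malat1 gathers in nuclear speckles beside splicing factors, Neat1 is the RNA around which paraspeckles form, and Kcnq1ot1 is an imprinted antisense RNA that silences neighbouring genes on the paternal chromosome. Malat1 and the long form of Neat1 are released at their 3′ end by RNase P rather than by the usual cleavage and polyadenylation, and U-rich stretches there fold with an A-rich tail into a triple helix. All 8 genes have a single exon in their longest GENCODE vM21 transcript.

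Copies of 7SL bear on how its reads can be assigned. In the GENCODE vM21 annotation of GRCm38, Rn7s1 and Rn7s2 both lie on chromosome 12, on opposite strands, and their transcripts have the same base at 300 of 300 positions. Rn7s6, another annotated 7SL gene, matched Rn7s1 at 98.6% identity over 214 bases.

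The 3′ ends of the 2 long RNAs are shown because they differ from an ordinary polyadenylated end and yet resemble each other. The Malat1 stretch is chr19:5795918-5796107 and the Neat1 stretch is chr19:5824708-5824827, both GRCm38, minus strand. Capitals mark every word of at least 10 bases that both stretches hold on the transcript strand.
Malat1, bases 6566 to 6755: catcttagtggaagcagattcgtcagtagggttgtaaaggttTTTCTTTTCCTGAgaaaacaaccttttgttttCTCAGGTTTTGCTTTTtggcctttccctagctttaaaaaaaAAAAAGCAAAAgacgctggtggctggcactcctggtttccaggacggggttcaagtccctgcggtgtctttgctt
Neat1, bases 20652 to 20771: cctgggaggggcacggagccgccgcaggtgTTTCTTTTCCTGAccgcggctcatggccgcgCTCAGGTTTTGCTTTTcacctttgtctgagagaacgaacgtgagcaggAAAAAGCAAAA

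3 words were shared, and they stand in the same order in both RNAs. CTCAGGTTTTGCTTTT starts at base 6640 of Malat1 and base 20713 of Neat1, and 2 of 55341 annotated gene symbols (0.00361%) hold it in their longest transcript. TTTCTTTTCCTGA was held by 17 of them (0.0307%) and AAAAAGCAAAA by 304 (0.549%), and Malat1 and Neat1 were the 2 that held all 3. The last word ends the Neat1 transcript and lies in Malat1 at the 3′ side of its longest run of A, which is 12 bases long and starts at base 6674. The longest run of A was 41 bases in Kcnq1ot1 and 7 in Neat1, against 2 to 4 in the 5 short RNAs. The Malat1 bases after the A-rich word lead into the small tRNA-like RNA that RNase P frees from it.

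The libraries held 17000976 to 17285594 counted reads with apoptotic cells and 18256622 to 18770757 without. With apoptotic cells 31787 to 32801 symbols had a read, against 18335 to 18540 without, and pseudogenes held 1.75 to 2.19% of reads, against 0.248 to 0.303%. The 2 conditions are the 2 deposited tables, which name genes differently (375 symbols stand in the table without apoptotic cells alone and 785 in the other alone), so condition and table cannot be told apart. All 8 macrophage markers had reads in every group. Kif13b itself had 1697, 1697 and 1721 reads in the libraries labelled KO + AC, against 1600, 1561 and 1634 in those labelled WT + AC, and 281, 345 and 424 reads in KO libraries, against 599, 546 and 535 in WT libraries. It was thus lower in KO without apoptotic cells but not with them, so every direction drawn with apoptotic cells is one between libraries as labelled. Replicates differed by far less with apoptotic cells (chi-square per degree of freedom of 1.40 to 1.93 for pairs of replicates) than without (4.96 to 35.5). Separate mice or cultures within a group are not stated in the labels. The p-values therefore cover the spread of the 3 libraries at hand, which may be technical.

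7SL RNA had reads with apoptotic cells and almost none without them. Rn7s1 had 249, 288 and 313 reads in KO + AC and 254, 311 and 285 reads in WT + AC libraries, against 0 in each of the 3 KO and 3 WT libraries. Rn7s2 had 375, 349 and 421 reads in KO + AC and 411, 463 and 392 reads in WT + AC, against 0, 2 and 0 reads in KO and 0, 0 and 0 in WT. Every library with apoptotic cells stood far above every library without them, in both genotypes. A count of 0 allows up to 3 reads in a library. On the scale fitted over all 12 libraries that floor was 0.183 to 0.204 CPM in KO and 0.180 to 0.186 CPM in WT (CPM are reads scaled to an effective library of 1000000), and Rn7s1 averaged 14.8 CPM in KO + AC and 14.2 CPM in WT + AC. With the floor in each library without apoptotic cells, Rn7s1 was at least 75.5-fold higher in KO + AC than in KO and at least 77.5-fold higher in WT + AC than in WT, and Rn7s2 was at least 116-fold higher in WT + AC than in WT. For Rn7s2 in KO the 2 reads give a ratio of 459 (95% counting interval 127 to 3793). These limits and intervals cover counting error only.

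**Figure D1:**
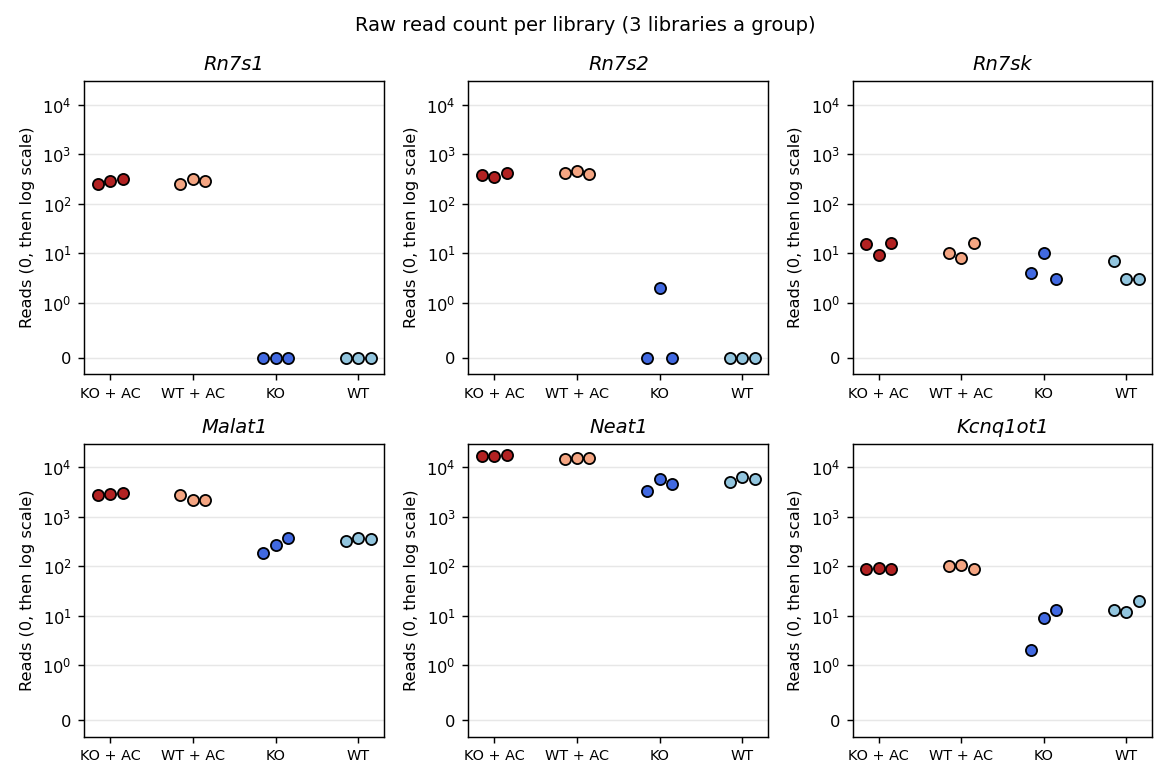
Raw reads per library (vertical axis, 0 and then log scale) of the 6 RNAs with any read, by group, with 1 point for each of 3 libraries a group. Rn7s1 and Rn7s2 sit at 249 to 463 reads in the groups with apoptotic cells (AC) and at 0 to 2 reads in the groups without them. Malat1 and Neat1 are higher with AC but well detected without. Kcnq1ot1 is higher with AC and has few reads without, 2 to 13 in KO and 12 to 20 in WT. Rn7sk stays at 16 reads or fewer in every library.

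The reads of 7SL were shared out over its copies. Rn7s1 took 39.9, 45.2 and 42.6% of the summed Rn7s1 and Rn7s2 reads in KO + AC and 38.2, 40.2 and 42.1% in WT + AC, where the 95% Wilson intervals of single libraries spanned 34.6 to 49.1%. The mean share was 42.6 ± 2.65% in KO + AC and 40.2 ± 1.95% in WT + AC (SD, n = 3 each), a difference of 2.43 percentage points (exact two-sided permutation test, p = 0.3, where 0.1 is the smallest p that 3 against 3 allows). The 2 transcripts are identical, and how reads that match both were placed is not given in the sources used here, so the split between the 2 genes is uncertain. Each gene also overlaps exons of 2 unnamed gene models on its own strand. The 7 annotated genes that match Rn7s1 at 90% identity or more over at least 150 bases, Rn7s2 among them, held 1151, 1189 and 1269 reads in KO + AC and 1302, 1379 and 1197 reads in WT + AC, against 1, 2 and 0 in KO and 2, 0 and 0 in WT. The copy Gm26461 alone had 403, 449 and 452 reads in KO + AC and 453, 462 and 418 in WT + AC, against 0 in KO and 1, 0 and 0 in WT. Rn7s6 had 127, 147 and 145 reads in KO + AC and 131, 163 and 128 in WT + AC, against 0 in KO and 1, 0 and 0 in WT. The whole family therefore split the same way between the conditions, with no copy counted without apoptotic cells in more than 2 reads. Levels of single copies are uncertain, since their sequences are so alike.

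**Figure D2:**
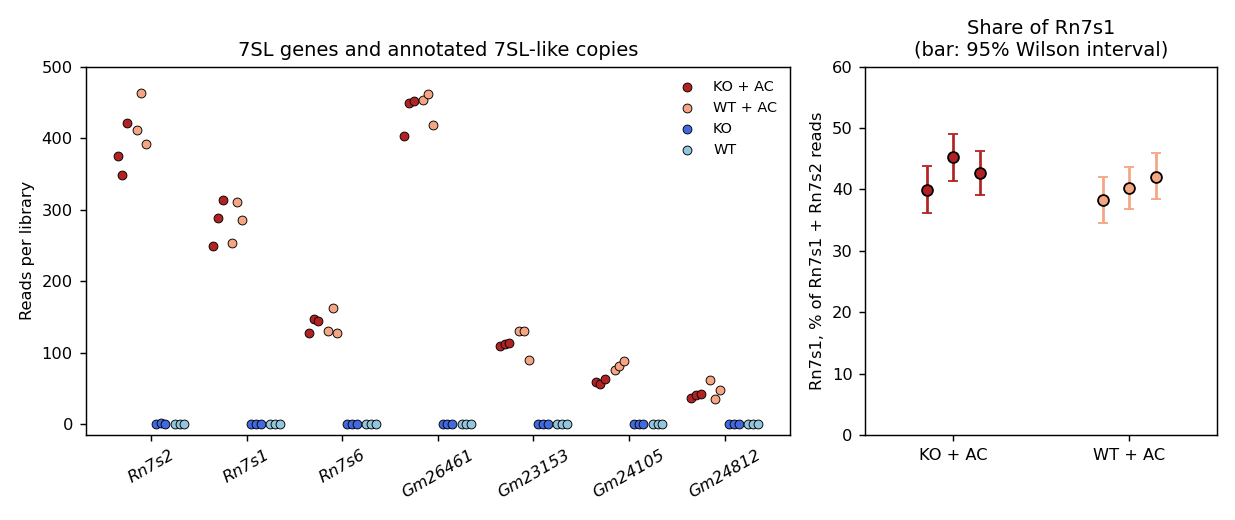
Left, reads per library (vertical axis) of Rn7s1, Rn7s2 and 5 annotated 7SL-like genes, with 3 points for each group. The copy Gm24514 is not drawn. It had 32 to 40 reads in KO + AC and 32 to 43 in WT + AC, against 0 in KO and WT. Right, Rn7s1 reads as a percentage of Rn7s1 plus Rn7s2 reads in each library with apoptotic cells, with 95% Wilson intervals. All points of KO and WT lie at 0 to 2 reads, and the shares of 38.2 to 45.2% overlap between KO + AC and WT + AC.

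7SL is a highly conserved RNA, and gene symbols cannot say whether a read came from mouse or from human RNA. Markers of T cells, the lineage of Jurkat, moved with the condition in both directions. Cd3e, a chain of the T cell receptor complex, had 58 to 84 reads in KO + AC and 75 to 91 in WT + AC, against 0 to 1 in both groups without apoptotic cells. Lck, the kinase of that receptor, had 375 to 468 reads in KO + AC and 471 to 569 in WT + AC, against 12 to 21 in KO and 10 to 16 in WT. Lat and Cd28 ran the other way. Lat had 267 to 283 reads in KO + AC and 334 to 353 in WT + AC, against 694 to 834 in KO and 460 to 618 in WT. Cd28 had 66 to 92 in KO + AC and 94 to 105 in WT + AC, against 167 to 276 in KO and 256 to 398 in WT. Over the list of 10 T cell markers 9 were tested, and 6 were higher and 2 lower with apoptotic cells in each genotype. Over all genes 49.6% were higher and 36.7% lower in KO, and 48.3% and 36.7% in WT. The 10 markers summed to 73.8 to 80.3 CPM in KO + AC and 79.5 to 89.0 CPM in WT + AC, against 60.6 to 72.8 in KO and 54.1 to 54.8 in WT. Cd3d had 0 to 2 reads in KO + AC and 0 to 1 in WT + AC, against 0 to 2 in KO and 0 in all WT libraries. The part of these markers in the 7SL reads was not tested. Other short structural RNAs were thinly counted, with 30 of 33 listed symbols present in both tables and 2 passing the filter on low counts, Rn7s6 and Rny3, a Ro-associated Y RNA. Rny3 had 15, 18 and 24 reads in KO + AC and 23, 32 and 18 in WT + AC, against 0 in every library without apoptotic cells.

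7SK was barely counted. Rn7sk had 15, 9 and 16 reads in KO + AC and 10, 8 and 16 in WT + AC, against 4, 10 and 3 in KO and 7, 3 and 3 in WT. The read ranges of KO + AC and KO overlap, while those of WT + AC and WT do not overlap in reads but do in CPM on the common scale. The ratio of mean CPM was 1.86 for KO + AC over KO and 2.16 for WT + AC over WT. The 11 annotated 7SK-like copies at 90% identity or more together held 12, 16 and 12 reads in KO + AC and 15, 12 and 11 in WT + AC, against 0 in KO and 1, 0 and 1 in WT. Rn7sk is 331 bases long, and bases 1 to 300 lie at chr9:78175334-78175633 (GRCm38, minus strand). This stretch is shown because 7SK, made by the same polymerase and of nearly the same length as 7SL, had few reads in every group, and capitals mark GATC, which stands 3 times in it and reads the same on both strands.
Rn7sk, bases 1 to 300: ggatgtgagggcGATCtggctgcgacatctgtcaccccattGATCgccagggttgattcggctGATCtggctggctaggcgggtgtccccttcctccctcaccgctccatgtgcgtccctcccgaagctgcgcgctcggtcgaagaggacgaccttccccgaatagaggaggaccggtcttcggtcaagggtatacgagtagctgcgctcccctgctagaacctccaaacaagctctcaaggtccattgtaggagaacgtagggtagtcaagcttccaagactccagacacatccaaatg

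The RNAs of RNase MRP and RNase P were at 0 in all 12 libraries, which allows up to 0.176 reads in 1000000 of the library total for each. Rmrp and Rpph1 are crowded in the annotation, so a 0 does not show that the RNA was missing. vM21 has 2 genes with the symbol Rmrp on the same strand, which share 271 bases, and both share 124 bases with exons of Ccdc107 on the opposite strand. Rpph1 shares 233 bases with exons of Ccnb1ip1 on its own strand. Ccnb1ip1, a ubiquitin ligase gene, had 77, 61 and 74 reads in KO + AC and 46, 78 and 74 in WT + AC, against 0 in all 6 libraries without apoptotic cells. Ccdc107 had 105, 104 and 127 reads in KO + AC and 108, 134 and 107 in WT + AC, against 519, 711 and 431 in KO and 463, 418 and 368 in WT. The reads of either pair could not be parted here.

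All 3 long nuclear RNAs were higher with apoptotic cells. Malat1 had 2814, 2846 and 3086 reads in KO + AC and 2728, 2182 and 2196 in WT + AC, against 187, 272 and 379 in KO and 326, 370 and 352 in WT. Neat1 had 17198, 17137 and 17409 reads in KO + AC and 15029, 15621 and 15130 in WT + AC, against 3252, 5921 and 4623 in KO and 5098, 6385 and 5824 in WT. Kcnq1ot1 had 89, 93 and 89 reads in KO + AC and 102, 107 and 90 in WT + AC, against 2, 9 and 13 in KO and 13, 12 and 20 in WT. None of the 3 overlapped between the conditions. The ratio of mean CPM was 8.45 for Malat1 in KO and 5.57 in WT, 3.00 for Neat1 in KO and 2.17 in WT, and 9.24 for Kcnq1ot1 in KO and 5.45 in WT, on 1 scale over all 12 libraries. In all, 5 of the 8 genes were higher in every library with apoptotic cells than in every library without, and 44.6% of the 16810 genes tested over the 12 libraries were too, so nothing is read from that count. By edgeR's quasi-likelihood test at a Benjamini-Hochberg adjusted p under 0.05, 86.3% of those genes differed between KO + AC and KO and 85% between WT + AC and WT. Scaling by library totals moved every gene up by 0.43 on the log2 scale in KO and 0.39 in WT. DESeq2 size factors moved every gene up by 0.09 in KO and 0.11 in WT. Since both shifts were upward, ratios above 1 could not turn direction under them. Marker lists also moved with the condition. Of 8 macrophage markers 4 were higher and 4 lower in KO, and 3 and 5 in WT. They summed to 15440 to 15729 CPM in KO + AC and 12773 to 13550 in WT + AC, against 30546 to 38054 in KO and 30060 to 32587 in WT. Most of that sum was 1 gene, Lyz2, so it does not stand for the list. Lyz2 had 204448 to 207697 reads in KO + AC, against 406629 to 467520 in KO. Cd14, among the markers that were higher, had 16526 to 17699 reads in KO + AC, against 1903 to 2006 in KO. Of 5 fibroblast markers 0 were higher and 5 lower in KO, and 1 and 4 in WT. The part of these markers in the long RNA values was not tested. In bulk RNA, fewer cells of a type and less RNA per cell cannot be told apart.

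Per kilobase of exon the order of the levels changed with the condition. With apoptotic cells Rn7s2 had 75.2 ± 6.84 CPM per kb in KO + AC and 81.2 ± 6.44 in WT + AC, and Rn7s1 had 55.8 ± 6.04 in KO + AC and 54.5 ± 4.79 in WT + AC (SD, n = 3 each). Neat1 followed with 49.1 ± 0.224 CPM per kb in KO + AC and 42.4 ± 0.474 in WT + AC, and Malat1 with 24.7 ± 1.11 in KO + AC and 19.6 ± 2.83 in WT + AC. Rn7s1 and Neat1 are neighbours in this order, and in KO + AC the gap between their means was only slightly larger than the SD of Rn7s1. Without apoptotic cells Neat1 was highest, at 12.4 ± 3.73 CPM per kb in KO and 14.6 ± 1.82 in WT, ahead of Malat1 at 2.22 ± 0.636 in KO and 2.63 ± 0.203 in WT. Rn7sk had 2.38 ± 0.672 CPM per kb in KO + AC and 1.98 ± 0.726 in WT + AC, against 0.977 ± 0.679 in KO and 0.683 ± 0.350 in WT. Its range overlapped that of Malat1 in KO, where the highest Rn7sk library had 1.75 and the lowest Malat1 library 1.57 CPM per kb. Kcnq1ot1 was lowest of the detected genes, with 0.0574 ± 0.00156 CPM per kb in KO + AC and 0.0618 ± 0.00534 in WT + AC, against 0.00472 ± 0.00312 in KO and 0.00848 ± 0.00261 in WT. Its annotated transcript is 93092 bases long, against 6983 for Malat1, 20771 for Neat1, 331 for Rn7sk and 300 for each 7SL gene, and the short form of Neat1 was not parted from the long one. Malat1 also shares 453 bases with an unnamed gene model on the opposite strand. The ratio of Neat1 to Malat1 per length was 1.99 ± 0.0839 in KO + AC and 2.19 ± 0.298 in WT + AC, against 5.76 ± 1.61 in KO and 5.54 ± 0.273 in WT (SD, n = 3 each). Between genotypes the ratio did not differ beyond its spread (exact two-sided permutation test, p = 0.4 with apoptotic cells and p = 0.7 without, smallest possible p = 0.1).

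With apoptotic cells, Neat1 was the RNA of the 8 that passed the test between genotypes. It averaged 1019.9 ± 4.66 CPM in the libraries labelled KO + AC and 881 ± 9.85 CPM in those labelled WT + AC (SD, n = 3 each), with no overlap. The log2 fold change was 0.21 (SE 0.03) with an adjusted p of 2.35e-06 by edgeR's quasi-likelihood test, higher in 3 of 3 libraries. In 12 of 13 alternatives the call held, with log2 fold changes of 0.16 to 0.25 and adjusted p-values from 4.55e-15 to 0.689, the highest in the joint fit of all 12 libraries, whose spread estimate includes the libraries without apoptotic cells. Malat1 averaged 172 ± 7.78 CPM in KO + AC and 137 ± 19.8 CPM in WT + AC. The groups did not overlap, but 1 WT + AC library, at 160 CPM, lay near the lowest KO + AC library, at 167 CPM, and the other 2 were at 124 and 127 CPM. The log2 fold change of Malat1 was 0.33 (SE 0.12, adjusted p = 0.183 by edgeR), and without WT + AC replicate 1 it was 0.46 with an adjusted p of 2.96e-10. With no filter on low counts it was 0.34 with an adjusted p of 2.22e-09 by edgeR. Only these 2 of 13 alternatives called Malat1, and adjusted p-values over the 13 reached 0.360.

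The other 4 RNAs tested with apoptotic cells did not pass the test. Their log2 fold changes were 0.03 (SE 0.08, adjusted p = 0.862) for Rn7s1, -0.11 (SE 0.07, adjusted p = 0.373) for Rn7s2, 0.27 (SE 0.35, adjusted p = 0.721) for Rn7sk and -0.11 (SE 0.13, adjusted p = 0.690) for Kcnq1ot1, all by edgeR. 1 of 6 genes tested was thus called, where 11.3% of 16467 genes were (6.58% higher and 4.75% lower), and Malat1 and Neat1, 2 of the 6, did not overlap between genotypes, where 26.4% of genes did not. Both shares over so few genes are near those of all genes. The calls over all genes were 1083 higher and 783 lower, and 648 higher and 1383 lower when libraries were scaled by their totals. Lists of cell type markers moved in the same comparison. 5 of 8 macrophage markers were higher and none lower in KO + AC, summing to 15440 to 15729 CPM in KO + AC and 12773 to 13550 in WT + AC, and 0 of 5 fibroblast markers were higher and 5 lower, summing to 244 to 263 CPM in KO + AC and 362 to 401 in WT + AC. Most of the macrophage sum was again Lyz2. Of the T cell markers 0 of 9 were higher and 2 lower. Their part in the Neat1 and Malat1 values was not tested.

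**Figure D3:**
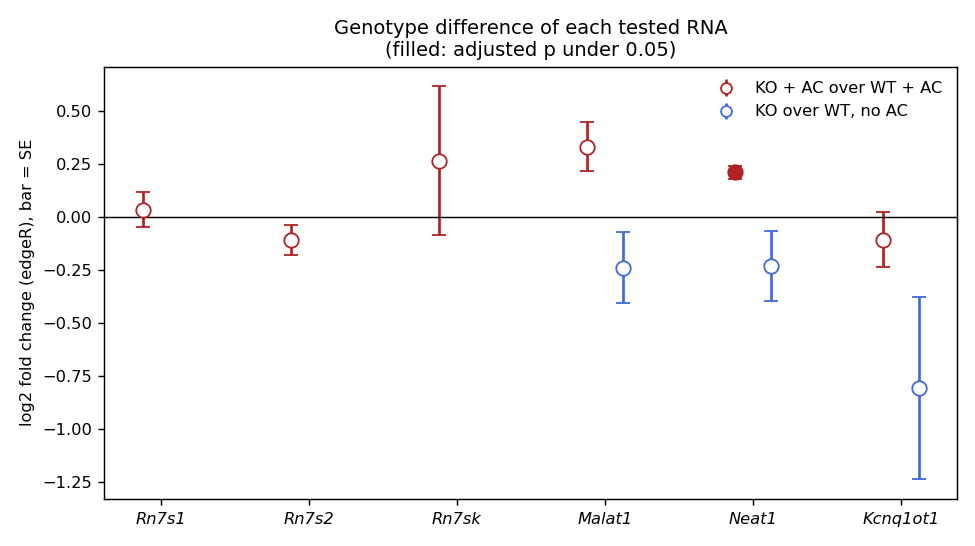
The log2 fold change between genotypes (vertical axis, edgeR) of each RNA that passed the filter on low counts, with its standard error, for KO + AC over WT + AC (red, left) and for KO over WT without apoptotic cells (blue, right). The Neat1 value with apoptotic cells (0.21) is filled, which marks an adjusted p under 0.05, and the Malat1 and Neat1 values have opposite signs in the 2 conditions.

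Without apoptotic cells 3 of the 8 genes passed the filter on low counts and 0 of the 3 were called, where 16.2% of 12640 genes were (7.94% higher and 8.24% lower). Malat1 averaged 15.5 ± 4.44 CPM in KO and 18.3 ± 1.42 CPM in WT (SD, n = 3 each), with a log2 fold change of -0.24 (SE 0.17, adjusted p = 0.323 by edgeR). Neat1 averaged 258 ± 77.5 CPM in KO and 303 ± 37.7 CPM in WT, with -0.23 (SE 0.16, adjusted p = 0.330). Kcnq1ot1 averaged 0.439 ± 0.290 CPM in KO and 0.789 ± 0.243 CPM in WT, with -0.81 (SE 0.43, adjusted p = 0.193). All 3 overlapped between genotypes, while 33.6% of all genes did not. At an unadjusted p under 0.05 edgeR's count was 0 as well, and DESeq2 also called 0, with no adjusted p given for Kcnq1ot1. Fibroblast markers moved in the same comparison, with 3 of 5 higher and 0 lower, summing to 763 to 988 CPM in KO and 559 to 694 CPM in WT, and their part in these values was not tested.

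The KO libraries were uneven. KO 1 was lowest for all 3 long RNAs, at log2 deviations of -0.60 for Malat1, -0.53 for Neat1 and -1.53 for Kcnq1ot1 from the mean of the 6 libraries. In KO 2 and KO 3 the RNAs differed from each other, with Malat1 at -0.08 in KO 2 and 0.25 in KO 3, Neat1 at 0.32 and -0.19, and Kcnq1ot1 at -0.05 and 0.28. The median deviation of the 1253 genes in the longest 10% was -0.27 in KO 1, -0.17 in KO 2 and 0.05 in KO 3, against 0.10, 0.11 and 0.17 in WT 1, 2 and 3, and that of the shortest 10% was 0.30, 0.23 and -0.16 in KO 1, 2 and 3, against -0.17, -0.09 and -0.11 in WT. Without KO 1 the log2 fold change was -0.04 for Malat1, -0.05 for Neat1 and -0.38 for Kcnq1ot1. Without KO 3 Malat1 was called (-0.50, adjusted p = 0.0207 by edgeR), and without KO 2 Neat1 was (-0.49, adjusted p = 0.0335 by edgeR). With offsets for gene length and GC content the values were 0.025 for Malat1 and 0.065 for Neat1, and without KO 1 and KO 2 together the Malat1 value was 0.11. The part of gene length in these values was not tested further. The calls over all genes were 1004 higher and 1041 lower, and 356 higher and 1268 lower with library totals.

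**Figure D4:**
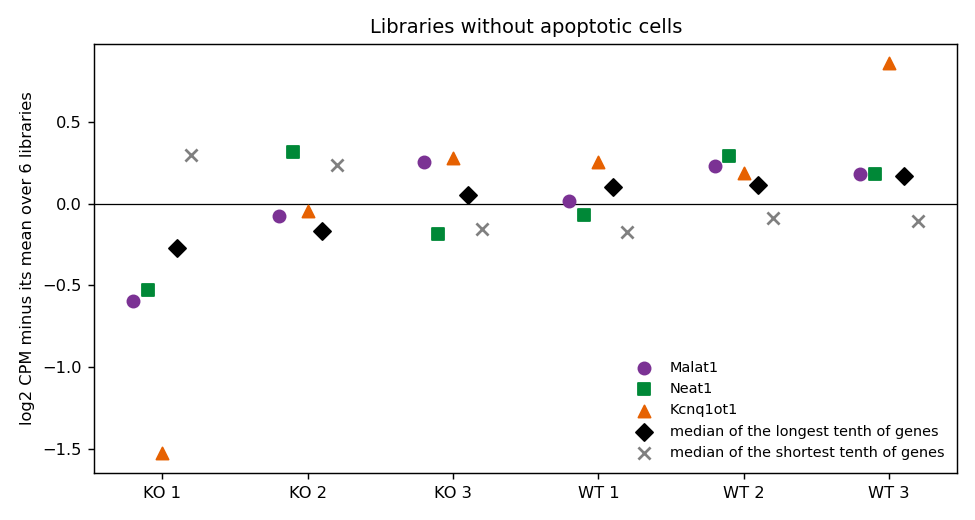
Deviation of log2 CPM from the mean of the 6 libraries without apoptotic cells (vertical axis) for Malat1, Neat1 and Kcnq1ot1, with the median of the longest and of the shortest 10% of genes, for each KO and WT library. All 3 RNAs and the median of the longest genes are lowest in KO 1, where the shortest genes are highest.

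Whether the genotype difference itself changed with apoptotic cells was tested in a fit of all 12 libraries. Of the 4 genes tested that had reads in every group, Malat1, Neat1, Kcnq1ot1 and Rn7sk, 0 were called by edgeR, where 12.7% of 16810 genes were (7.55% higher and 5.13% lower), and DESeq2 called 1, Malat1. The difference of log2 fold changes was 0.60 for Malat1 (SE 0.20, unadjusted p = 0.00657, adjusted p = 0.0512 by edgeR), with adjusted p-values from 0.000842 to 0.353 over 18 alternatives, 5 of which called it. For Neat1 it was 0.47 (SE 0.20, unadjusted p = 0.0319, adjusted p = 0.138 by edgeR), called in 3 of 18 alternatives. Malat1 and Neat1 were the 2 with an unadjusted p under 0.05. Kcnq1ot1 had 0.72 (SE 0.42, adjusted p = 0.281) and Rn7sk -0.18 (SE 0.67, adjusted p = 0.953), both by edgeR. Rn7s1 and Rn7s2 passed the filter through the libraries with apoptotic cells, and their difference cannot be read, since they were at or near 0 without them.

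Proteins that work with these RNAs were compared next, from lists chosen by function. With apoptotic cells against none, the 11 proteins of RNase P and RNase MRP were 1 higher and 10 lower in both genotypes, where 49.6% of all genes were higher and 36.7% lower in KO and 48.3% and 36.7% in WT. Their median log2 fold change was -1.62 in KO and -1.34 in WT, against 0.32 and 0.25 for all genes tested. Rpp21, a subunit of RNase P, averaged 6.90 ± 0.290 CPM in KO + AC and 37.4 ± 6.21 CPM in KO (SD, n = 3 each), which is -2.43 on the log2 scale. Paraspeckle proteins ran the other way, with 11 of 13 higher and 1 lower in KO and 10 higher and 1 lower in WT, at medians of 0.96 and 0.99. Sfpq, an RNA-binding protein that paraspeckles need, averaged 228 ± 3.92 CPM in KO + AC and 64.3 ± 10.2 CPM in KO, and 219 ± 7.75 CPM in WT + AC and 77.2 ± 3.41 CPM in WT. Both directions held with DESeq2 size factors, library totals, and length and GC offsets, where the RNase list had 8 to 10 genes lower and the paraspeckle list 10 to 12 higher.

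The signal recognition particle did not move as 1 group. Of its 10 proteins and receptor subunits 1 was higher and 4 were lower with apoptotic cells in each genotype, by edgeR, at medians of -0.02 in KO and -0.24 in WT. Srp9, which binds the Alu end of 7SL with Srp14, averaged 36.3 ± 1.35 CPM in KO + AC and 168 ± 27.1 CPM in KO, a log2 fold change of -2.21. Srp14 averaged 62.6 ± 2.60 CPM in KO + AC and 203 ± 33.8 CPM in KO, a log2 fold change of -1.70. Srp9 and Srp14 also fell in WT + AC against WT, by 2.11 and 1.55 on the log2 scale. With library totals 6 of the 10 were higher and 4 lower in KO, and 4 and 4 in WT. Srp9 and Srp14 were thus lower in the libraries where the reads of 7SL were higher. Of the 7SK and P-TEFb list 4 of 7 were higher and 3 lower in each genotype, led by Ccnt1, the cyclin T1 of P-TEFb, at 1.77 in KO and 1.18 in WT, while Larp7, which binds the 3′ end of 7SK, was at -1.26 in KO and -1.46 in WT. RNA polymerase III subunits and factors were 11 higher and 10 lower of 25 in KO and 11 and 11 in WT, with Maf1, a repressor of that polymerase, at -1.91 in KO and -1.72 in WT. snoRNA host genes, long RNAs whose introns release small nucleolar RNAs, were 1 higher and 8 lower of 9 in each genotype. With library totals 6 were lower in each genotype, and with length and GC offsets 5 in KO and 6 in WT. Among all genes tested, 49.6% were higher and 36.7% lower in KO, and 48.3% and 36.7% in WT.

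**Figure D5:**
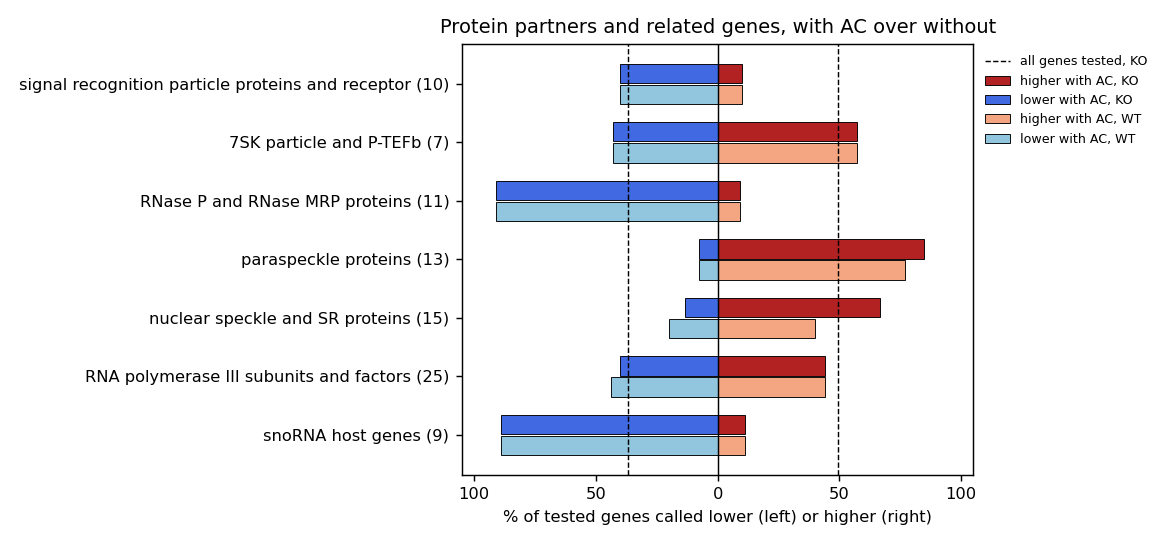
Share of the tested genes in each list (horizontal axis, percent) called lower to the left and higher to the right with apoptotic cells against none, KO above WT, with the number tested in brackets. Dashed lines mark the shares over all genes tested in KO, 36.7% lower and 49.6% higher. The RNase P and RNase MRP proteins and the snoRNA host genes lie mostly to the left and the paraspeckle proteins to the right.

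Between genotypes, proteins of nuclear speckles, where Malat1 gathers, had calls in opposite directions in the 2 conditions. Without apoptotic cells 0 of 15 were higher and 6 lower in KO than in WT, at a median of -0.28 against 0.02 for all genes, of which 8.24% were lower. Clk1, a kinase of splicing factors, averaged 35.7 ± 5.06 CPM in KO and 62.1 ± 10.9 CPM in WT (SD, n = 3 each). Its log2 fold change was -0.80, with an adjusted p of 0.00149 by edgeR. With length and GC offsets 2 were lower, and leaving out libraries in turn left 2 lower without KO 1, 3 without KO 2, 9 without KO 3, 2 without WT 2 and 2 without WT 3. In the libraries labelled KO + AC, against those labelled WT + AC, 6 of 15 rose and 0 fell, at a median of 0.06 against -0.02 for all genes, of which 6.58% were higher. Clk1 there averaged 107 ± 1.65 CPM in KO + AC and 96.3 ± 0.0934 CPM in WT + AC, a log2 fold change of 0.15 with an adjusted p of 0.00788 by edgeR. That direction did not hold under library totals, where 1 was higher and 2 lower, and 3 were higher without KO + AC replicate 1 or without KO + AC replicate 2. Paraspeckle and signal recognition particle proteins had 0 calls by edgeR in either genotype comparison. RNase P and RNase MRP proteins had 1 higher of 11 without apoptotic cells, Rpp25, at 0.49 (adjusted p = 0.0485 by edgeR), and 0 calls with them. The Rpp25 call was lost with DESeq2 size factors, library totals, and length and GC offsets. Leaving out libraries in turn gave 0 to 3 higher in that list without apoptotic cells. The 7SK and P-TEFb list had 1 lower of 7 without apoptotic cells, Ccnt1, which averaged 11.6 ± 1.30 CPM in KO and 16.8 ± 1.68 CPM in WT, and 0 calls with them. With length and GC offsets the list had 0 calls without apoptotic cells and 2 higher with them, and with DESeq2 size factors 1 was higher with them.

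Genes near the long RNAs were mostly outside the calls between genotypes. Of all genes 16.2% were called between genotypes without apoptotic cells and 11.3% with them. Cdkn1c, a growth inhibitor gene that Kcnq1ot1 silences on the paternal chromosome, averaged 219 ± 16.5 CPM in KO and 104 ± 11.0 CPM in WT, a log2 fold change of 1.08 with an adjusted p of 1.36e-05 by edgeR, and was the 1 called of 9 tested genes of that domain. With apoptotic cells the 1 called of 11 was Cd81, a tetraspanin gene, at -0.17, a call lost with DESeq2 size factors and with length and GC offsets. Of 11 tested neighbours of Malat1 and Neat1 on chromosome 19, 2 were higher and 1 lower in KO + AC than in WT + AC, and 1 and 1 with library totals. Rela, a subunit of NF-kappaB, averaged 236 ± 1.93 CPM in KO + AC and 188 ± 8.31 CPM in WT + AC. Its log2 fold change was 0.33, with an adjusted p of 1.15e-09 by edgeR. With apoptotic cells against none more of these genes were called. The neighbours were 7 higher and 4 lower of 11 in KO, and 6 and 2 in WT. The Kcnq1ot1 domain was 2 higher and 7 lower of 11 in KO, and 2 and 5 in WT. All genes tested were 49.6% higher and 36.7% lower in KO, and 48.3% and 36.7% in WT. Kcnq1ot1 runs antisense to Kcnq1 and shares 121 exonic bases with it, and Kcnq1 had 55, 43 and 45 reads in KO + AC and 35, 54 and 53 in WT + AC, against 34, 36 and 28 in KO and 37, 31 and 25 in WT. The counting is not stated to use strand, so reads of the pair cannot be told apart where they overlap.

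The genes whose profiles over the 12 libraries lay nearest to each RNA were named by the root mean square difference of log2 CPM, each profile centred on its own mean, as a description with no test. Nearest to Malat1 were Zfhx3 (0.12), Fosl2 (0.13) and Raph1 (0.15), and nearest to Neat1 were Firre (0.12), Zc3h13 (0.13) and Chd9 (0.14). Fosl2 encodes an AP-1 transcription factor and Firre is itself a nuclear long noncoding RNA. Nearest to Rn7s1 were the processed pseudogenes Gm6426 (0.03) and Gm14008 (0.06), which likewise had no reads without apoptotic cells. For Rn7s2 the nearest, Gm8900, was at 0.17, for Rn7sk the nearest, Spock2, was at 0.31, and for Kcnq1ot1 the nearest, Gm26724, was at 0.25. All of these profiles had a higher mean with apoptotic cells, so likeness over the 12 libraries includes the condition. For Rn7sk itself, libraries with and without apoptotic cells overlapped in CPM.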

How the data were processed

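Reads were trimmed and aligned before deposit, and the submitters' processing notes name fastp, HISAT2 2.0.5, DESeq2 1.20.0 and the build mm10. How reads were counted (tool, gene models, strand) is not given in the sources used here. The values used are raw counts per gene symbol as the authors deposited them, in 1 table of 6 libraries for each condition. Depth was 17000976 to 18770757 counts a library.

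Each table was fitted separately for KO against WT with edgeR 4.0.16 (R 4.3.3; TMM scaling, filterByExpr, robust quasi-likelihood test, Benjamini-Hochberg adjusted p under 0.05), and all 12 libraries jointly for the interaction and for apoptotic cells against none. CPM used TMM library sizes. Annotation and sequences are GENCODE vM21 (GRCm38), the sequence of 7SL is not reported here, and copies were found with blastn 2.17.0. Shares and ratios were tested with exact permutation tests (scipy 1.17.1). The fits were tested on simulated data. Alternatives were DESeq2 1.42.0, its size factors, library totals, no filter, length and GC offsets, the joint fit, a replicate block, and leaving out libraries.

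The genes and lists were chosen with earlier results of these data known. Named are the 8 RNAs, up to 4 called genes with the smallest p in each list and comparison, and up to 3 genes nearest in profile. Replication-dependent histone genes were left out, since 68 such symbols stand in one table and 9 in the other.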

Additional observations from a re-analysis of the deposited data

Results flagged for a closer look

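For some genes of the lists the genotype difference with apoptotic cells differed from that without them, by edgeR's interaction test with Benjamini-Hochberg adjustment. Of all 16810 genes tested 12.7% were called (7.55% higher and 5.13% lower). Up to 4 genes with the smallest p are named for each list. A positive value means a higher log2 fold change, KO over WT, with apoptotic cells. In the 7SK and P-TEFb list these were Ccnt1 at 0.59 (adjusted p = 0.00679) and Ccnt2 at 0.49 (adjusted p = 0.0345), and among RNase P and RNase MRP proteins Rpp25 at -0.84 (adjusted p = 0.0481). Of the nuclear speckle list 6 of 15 were called, all higher, and the 4 with the smallest p were Clk1 at 0.97 (adjusted p = 0.000172), Clk4 at 0.91 (adjusted p = 0.00143), Srsf5 at 0.65 (adjusted p = 0.00328) and Srrm2 at 0.53 (adjusted p = 0.00839). Near the long RNAs they were Cdkn1c at -1.10 (adjusted p = 5.88e-06), Cd81 at -0.48 (adjusted p = 0.0186) and Ltbp3 at -0.62 (adjusted p = 0.0149). Of 13 other nuclear long RNAs 4 were higher and 4 lower, and the 4 with the smallest p were Rian at -1.23 (adjusted p = 0.000245), Tug1 at 0.83 (adjusted p = 0.000481), Xist at 0.80 (adjusted p = 0.00376) and Oip5os1 at 0.59 (adjusted p = 0.00455). The snoRNA host genes were Snhg6 at -0.66 (adjusted p = 0.0373) and Snhg18 at -1.28 (adjusted p = 0.0478). RNA polymerase III genes were Bdp1 at 0.60 (adjusted p = 0.0126), Ssb at 0.62 (adjusted p = 0.0202), Snapc1 at 0.49 (adjusted p = 0.0318) and Snapc2 at -0.49 (adjusted p = 0.0475). With length and GC offsets the RNA polymerase III list and the RNase P and RNase MRP list had 0 interaction calls. Each other list named here had 1 or more. Leaving out libraries in turn gave 0 to 5 higher and 0 to 3 lower in the RNA polymerase III list.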

How the results depend on the processing

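The number of genes called without apoptotic cells (2045) was 3999 in the joint fit, 926 with length and GC offsets, 95 without KO replicates 1 and 2 (chosen after seeing the data) and 312 to 4166 when each library was left out in turn. With apoptotic cells (1866) it was 1137 by DESeq2, 157 in the joint fit and 1192 to 2142 with a library left out. For the interaction (2132) it was 1129 to 4330 with a library left out. Of the 8 RNAs, 0 to 1 were called without apoptotic cells with a library left out. With apoptotic cells 0 were called in the joint fit, 2 with no filter and 1 to 2 with a library left out. For the interaction 1 was called by DESeq2, 2 with no filter, 2 with the replicate block and 0 to 1 with a library left out. Directions turned for Malat1 without apoptotic cells (0.025 with length and GC offsets, 0.11 without KO replicates 1 and 2), for Neat1 there (0.065 with length and GC offsets), for Rn7s1 with apoptotic cells (-0.013 with library totals, -0.032 to 0.12 with a library left out) and for the Rn7sk interaction (0.30 with length and GC offsets, -0.73 to 0.48 with a library left out). The cause was not tested. With library totals the log2 ratio with against without apoptotic cells was 6.67 in KO and 6.66 in WT for Rn7s1, and in WT 7.24 for Rn7s2, 2.86 for Malat1 and 1.51 for Neat1. Same-numbered KO and WT libraries did not deviate together (correlations of -0.20, -0.00 and 0.11 without apoptotic cells and 0.02, -0.07 and -0.08 with them). Differently numbered pairs ran from -0.25 to 0.24 without apoptotic cells, so these values cannot exclude pairing by number. The main fits used no pairing. The replicate block gave 2496 genes called without apoptotic cells, 1649 with them and 2174 for the interaction, with Malat1 at 0.60 (adjusted p = 0.0462) and Neat1 at 0.49 (adjusted p = 0.0424) for the interaction by edgeR. Few reads limit Rn7sk in all groups and Kcnq1ot1 without apoptotic cells.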

Other observations

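Of 13 other nuclear long noncoding RNAs, 7 were higher and 3 lower with apoptotic cells in KO and 5 higher and 4 lower in WT, by edgeR's quasi-likelihood test. Of all genes 49.6% were higher and 36.7% lower in KO, and 48.3% and 36.7% in WT. With length and GC offsets 5 were higher and 5 lower in KO, and 4 and 6 in WT. Xist, the RNA that coats the inactive X chromosome, averaged 505 ± 17.5 CPM in KO + AC and 44.0 ± 10.8 CPM in KO (SD, n = 3 each), and 459 ± 12.4 CPM in WT + AC and 69.8 ± 10.6 CPM in WT. H19, an imprinted RNA, ran the other way, at 0.627 ± 0.264 CPM in KO + AC and 18.9 ± 1.41 CPM in KO. Between genotypes with apoptotic cells 1 of 13 was higher and 2 lower, the lower ones being Rian and Meg3, RNAs of 1 imprinted cluster, and with library totals 0 were higher and 2 lower. Rian averaged 4.36 ± 0.382 CPM in KO + AC and 7.94 ± 0.501 CPM in WT + AC, a log2 fold change of -0.87 with an adjusted p of 1.18e-06 by edgeR. Without apoptotic cells 2 of 12 were higher and 4 lower, 1 and 1 without KO replicate 1, and 2 and 1 with length and GC offsets. Over all genes 7.94% were higher and 8.24% lower between genotypes without apoptotic cells, and 6.58% and 4.75% with them.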
